A study of Homo sapiens with 4 samples.

Results

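The AP-1 and immediate early genes followed here were FOS, FOSB, FOSL1, FOSL2, JUN, JUNB, JUND, ATF3, EGR1 and IER2. They were chosen by name, but with earlier results of these data known. The gene lists set beside them were also chosen with those results known. The members are the FOS and JUN families of AP-1 subunits, the related factor ATF3 and 2 further immediate early genes. All 10 were among the 15218 genes of the count table, and all 10 passed the filter on low counts and were tested with 14620 genes in all. RNA was sequenced from HEK293T, a human embryonic kidney cell line that carries the SV40 large T antigen, in 2 control libraries and 2 FOXP4 KO libraries. All cells were grown in DMEM with fetal bovine serum and antibiotics, and no stimulus was named for either group. The sources differ on how FOXP4 was targeted, since the text of the study names CRISPR-Cas9, its methods name a FOXP4 shRNA virus with puromycin selection, and the sample labels give the genotype as a knock down. Its RNA sequencing methods do not say whether the controls received a virus or puromycin. Any effect of these thus cannot be told apart from that of FOXP4 loss. Both KO libraries carry the name KO1 and were read as 1 line, and nothing states that libraries of a group came from separate cultures. The p-values thus cover only differences among these 4 libraries, a spread that may be technical.

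AP-1 is a dimer of basic leucine zipper proteins. JUN proteins pair with each other, with FOS proteins or with relatives such as ATF3, whereas FOS proteins need a partner of another family. The dimers bind the TRE element and the related CRE element, and the balance of subunits sets how strongly target genes are driven. Many of these genes are immediate early genes, whose transcription is switched on within minutes by serum, growth factors or stress through MAP kinases, serum response factor and its ELK partners, without new protein synthesis, and whose short-lived transcripts then decay.

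Total counts were 36393224 to 43057305 per library, and mitochondrial genes took 4.79% to 6.84% of them, with the highest share in KO library 2. The control libraries held 2562 and 2463 counts of FOXP4 and the KO libraries 713 and 886. This fall of 3.43-fold (log2 fold change −1.78 ± 0.185 SE, adjusted p = 0.00383) left transcripts in both KO libraries. All 11 markers of the embryonic kidney line were in the count table, of which INA and NEFM, neurofilament genes known in this line, rose (log2 fold changes 2.36 and 1.97), and VIM and CDH2 fell (−1.99 and −0.80). The 6 blood cell markers summed to 3.52 and 2.502 TPM in the controls and 1.999 and 1.51 TPM in the KO columns, with HBB at 0 in all of them. The 6 fibroblast markers summed to 7.04 and 8.51 against 12.1 and 7.72 TPM, most of it COL1A1, and the 4 endothelial markers to 0.165 and 0.388 against 0.450 and 0.436 TPM. Only 2 of the blood cell markers, 2 of the fibroblast markers and 1 of the endothelial markers could be tested. Of these only PDGFRB passed, with 20 and 12 counts in the controls and 75 and 78 in the KO libraries. LUM, a fibroblast marker that could not be tested, went the other way, with 0.95 and 1.14 TPM in the controls and 0.031 and 0 TPM in the KO columns. Whether other cells had a part in the results was not tested.

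Promoter sequences are shown for JUN, JUND, FOSL2 and ATF3, which changed, and for EGR1, because AP-1 genes are known to carry elements for their own products or for serum response factor. Each sequence runs 5′ to 3′ from 220 bases before the annotated RefSeq start (GRCh38.p14) to 20 bases from it. Motifs were searched on both strands in the RefSeq promoter windows, which hold 300 bases each, and 9 of the 10 members had an entry (all but FOSL1). ATF3 had 2 windows, of which the first is shown. The windows are JUN at chr1:58784028-58784267 on the reverse strand, ATF3 at chr1:212565187-212565426 on the forward strand, FOSL2 at chr2:28392638-28392877 on the forward strand, JUND at chr19:18281603-18281842 on the reverse strand and EGR1 at chr5:138465259-138465498 on the forward strand. Capitals mark TGACATCA in JUN and ATF3, TGACTCA (TRE) in FOSL2, TGACGTCA (CRE) in JUND and both CArG boxes, the binding element of serum response factor, in EGR1.
JUN: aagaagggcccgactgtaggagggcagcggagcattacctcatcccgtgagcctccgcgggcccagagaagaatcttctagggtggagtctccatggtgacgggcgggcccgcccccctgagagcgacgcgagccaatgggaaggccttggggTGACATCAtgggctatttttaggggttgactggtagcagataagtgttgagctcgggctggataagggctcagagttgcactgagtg
ATF3: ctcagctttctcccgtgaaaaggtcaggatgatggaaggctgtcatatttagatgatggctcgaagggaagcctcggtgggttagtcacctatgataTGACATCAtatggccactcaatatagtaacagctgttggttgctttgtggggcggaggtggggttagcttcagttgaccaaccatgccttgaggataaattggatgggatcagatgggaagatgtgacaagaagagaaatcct
FOSL2: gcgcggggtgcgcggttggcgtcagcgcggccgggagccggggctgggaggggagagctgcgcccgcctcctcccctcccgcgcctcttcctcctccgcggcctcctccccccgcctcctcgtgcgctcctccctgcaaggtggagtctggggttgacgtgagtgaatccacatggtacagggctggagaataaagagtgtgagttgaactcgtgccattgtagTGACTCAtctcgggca
JUND: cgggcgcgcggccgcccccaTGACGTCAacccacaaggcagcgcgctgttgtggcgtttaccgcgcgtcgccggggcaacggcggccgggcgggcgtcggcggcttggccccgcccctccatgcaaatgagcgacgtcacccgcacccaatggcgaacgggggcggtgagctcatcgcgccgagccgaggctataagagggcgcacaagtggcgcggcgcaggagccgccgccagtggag
EGR1: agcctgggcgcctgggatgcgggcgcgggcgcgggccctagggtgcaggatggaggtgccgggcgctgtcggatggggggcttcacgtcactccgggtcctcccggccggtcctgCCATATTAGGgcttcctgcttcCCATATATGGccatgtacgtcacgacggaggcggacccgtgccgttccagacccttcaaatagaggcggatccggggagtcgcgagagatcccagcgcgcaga

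JUN and ATF3 held the same letters TGACATCA, at −67 to −60 and −123 to −116 from the start, a form present in 2.61% of 35116 promoter windows. For ATF3 this holds for the window shown, and the other, at chr1:212614768-212615067, held 0 matches. The TRE of FOSL2 lay just after the start, from 5 to 11, and TGACTCA or its reverse TGAGTCA was found in 4.95% of windows. The CRE of JUND lay at −200 to −193, and 1.85% of windows held TGACGTCA. The CArG boxes of EGR1 (CCATATTAGG at −105 to −96 and CCATATATGG at −83 to −74) are of a kind found in 1.29% of windows. The forkhead letters GTAAACA or TGTTTAC were found in JUNB alone of these 9 members, at −166 to −160, and in 3.42% of windows. These elements overlapped none of the others listed, and a match describes letters in a window, not binding. All positions are from RefSeq starts, which need not be those of GENCODE v29. The windows shown for JUN and FOSL2 lie inside the GENCODE v29 spans of these genes (58780788 to 58784327 and 28392448 to 28417312). The other ATF3 window, which is not shown, also lies well inside the span of its gene (212565334 to 212620777).

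Among the JUN family, JUN and JUND were lower in FOXP4 KO cells and JUNB was not called. JUN, the main activating subunit and the most abundant member here, lies on the reverse strand of chromosome 1 from 58780788 to 58784327 (GRCh38, GENCODE v29) as a gene of 1 exon. Control libraries 1 and 2 held 14695 and 14030 counts of JUN, against 7069 and 7283 in KO libraries 1 and 2, which is 415 and 325 against 164 and 174 CPM (counts scaled to library size, with TMM factors). Both KO libraries lay far below both controls, and the KO libraries were close to each other. The fall was 2.19-fold (95% interval 1.71 to 2.80, log2 fold change −1.13 ± 0.148 SE, adjusted p = 0.00635, edgeR quasi-likelihood test). JUN was the only member called under each of the 13 other settings, including without each library in turn (log2 fold changes −1.303 to −0.97). Bulk RNA cannot tell fewer cells that express a gene from less RNA per cell.

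JUND, a JUN protein that is present in resting cells and responds little to serum, is a gene of 1 exon on the reverse strand of chromosome 19 from 18279760 to 18281622. JUND had 56.6 and 65.2 CPM in the controls and 39.6 and 41.2 CPM in the KO libraries (2005, 2816, 1708 and 1721 counts). The groups did not overlap. The difference was smaller than for JUN, at 1.51-fold lower (log2 fold change −0.59 ± 0.126 SE, adjusted p = 0.0205), and it was not called without KO library 1 (−0.56, adjusted p = 0.112) or without KO library 2 (−0.62, adjusted p = 0.0871). JUNB, which binds as JUN does but activates many targets less, had 17.3 and 9.56 CPM in the controls and 10.1 and 15.0 CPM in the KO libraries. The libraries of the 2 groups interleaved, and the log2 fold change was −0.09 with a 95% interval of −0.88 to 0.69 (adjusted p = 0.852). Of the exon bases of JUNB, 14.2% are shared with HOOK2 on the other strand, and whether the counting used strand is not given in the sources used here. HOOK2 had 768 and 910 counts in the controls and 1332 and 1342 in the KO libraries, and its part in the JUNB counts was not tested.

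**Figure D1:**
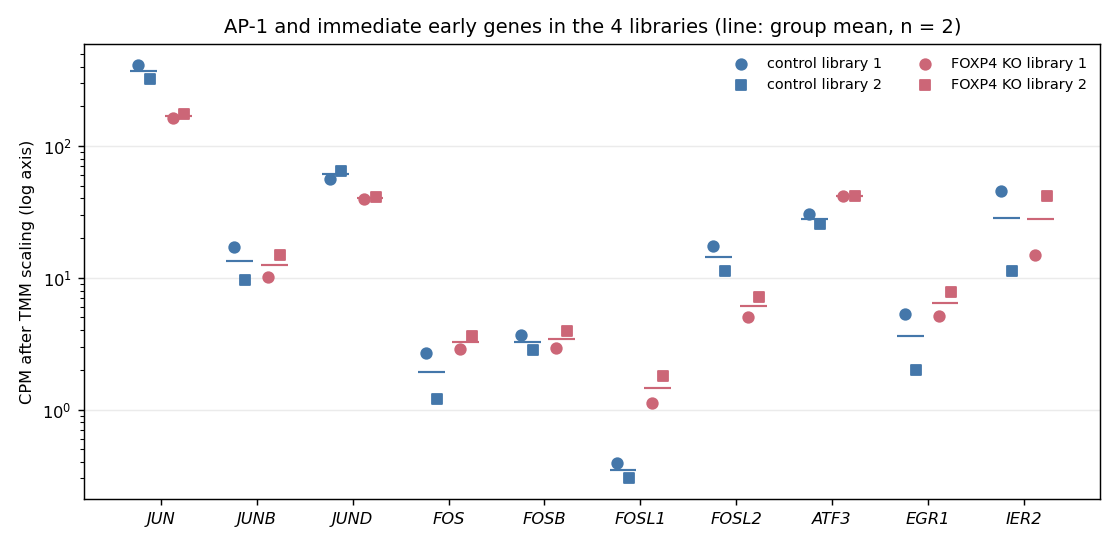
CPM after TMM scaling (log axis) of the 10 members in control libraries 1 and 2 (blue) and FOXP4 KO libraries 1 and 2 (red), with circles for library 1, squares for library 2 and lines for the group means (n = 2). JUN, JUND and FOSL2 lie lower in both KO libraries, FOSL1, ATF3 and FOS lie higher, and IER2 spans 11.3 to 45.4 CPM in the controls alone.

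In the FOS family, FOSL2 and FOSL1 moved in opposite directions. FOSL2 and FOSL1 encode FRA2 and FRA1, the FOS proteins that lack a strong activation domain and are made later and kept longer than FOS after a stimulus. FOSL2 had 617 and 489 counts in the controls and 216 and 298 in the KO libraries (17.4, 11.3, 5.01 and 7.13 CPM). Both KO libraries were below both controls, 2.36-fold on average (95% interval 1.47 to 3.81, log2 fold change −1.24 ± 0.284 SE, adjusted p = 0.0253). The call was lost without control library 1 (−0.93, adjusted p = 0.0728) and without KO library 1 (−1.01, adjusted p = 0.124).

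FOSL1 was the member with the lowest level, with 14 and 13 counts in the controls and 48 and 75 in the KO libraries (0.395, 0.301, 1.11 and 1.79 CPM). The controls agreed closely and lay below both KO libraries. FOSL1 rose 4.18-fold (95% interval 2.07 to 8.40, log2 fold change 2.06 ± 0.417 SE, adjusted p = 0.0181). On the log2(TPM + 1) scale the log2 fold change was 1.15 (adjusted p = 0.0157, limma-trend). With edgeR the adjusted p was 0.0508 without control library 1, 0.0561 without control library 2 and 0.115 without KO library 2, with log2 fold changes of 2.23, 1.86 and 1.68. Of 77 tested genes within 1 Mb of FOSL1 on chromosome 11, 15 were called higher and 4 lower. Over all genes tested, 13.8% were called higher and 12.1% lower. The median log2 fold change of these 77 genes was 0.13, and that of the 4 within 1 Mb of JUN on chromosome 1 was −0.10. Over the 10 members such medians ran from −0.16 (JUND) to 0.21 (ATF3), and whether a region had a part was not tested.

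FOS, the classical serum-induced subunit, had 2.68 and 1.204 CPM in the controls and 2.87 and 3.61 CPM in the KO libraries (95, 52, 124 and 151 counts). Both KO libraries were above both controls, but control library 1 was only just below KO library 1. The log2 fold change of 0.75 (95% interval −0.23 to 1.72) did not pass the test (adjusted p = 0.212), and it ran from 0.26 (adjusted p = 0.483) without control library 2 to 1.40 (adjusted p = 0.0418) without control library 1, the only setting that called it. FOSB, which is induced together with FOS, had 3.67 and 2.85 CPM in the controls and 2.92 and 3.92 CPM in the KO libraries. These ranges overlapped, and the log2 fold change was 0.07 (95% interval −0.58 to 0.72, adjusted p = 0.860).

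The levels of different genes were compared in TPM, scaled transcript levels that take gene length into account. The KO columns of that table could not be matched to KO libraries 1 and 2 and are called a and b. JUN family transcripts summed to 316 and 273 TPM in the controls and 147 and 158 TPM in KO columns a and b. FOS family transcripts summed to 11.5 and 7.20 TPM in the controls and 9.92 and 13.2 TPM in the KO columns. The JUN sums were thus lower in both KO columns, while the FOS sums overlapped.

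The ratio of the JUN to the FOS family sum was 27.4 and 37.9 in the controls and 14.8 and 11.95 in the KO columns. With 2 libraries against 2, an exact two-sided permutation test of such a single value cannot give a p below 0.33, so these are descriptions. FOSL2 was the most abundant FOS family transcript in both controls, at 46.6% and 49.6% of the family sum, and took 16.8% and 17.5% in the KO columns. FOSL1 took 4.12% and 5.54% in the controls and 17.4% and 20.6% in the KO columns. FOS took 28.7% and 23.4% against 45.8% and 40.6%, and the share of FOSB stayed between 19.99% and 21.5%. JUN remained the largest part of its own family, with 74.6% and 69.4% in the controls and 63.3% and 61.7% in the KO columns.

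**Figure D2:**
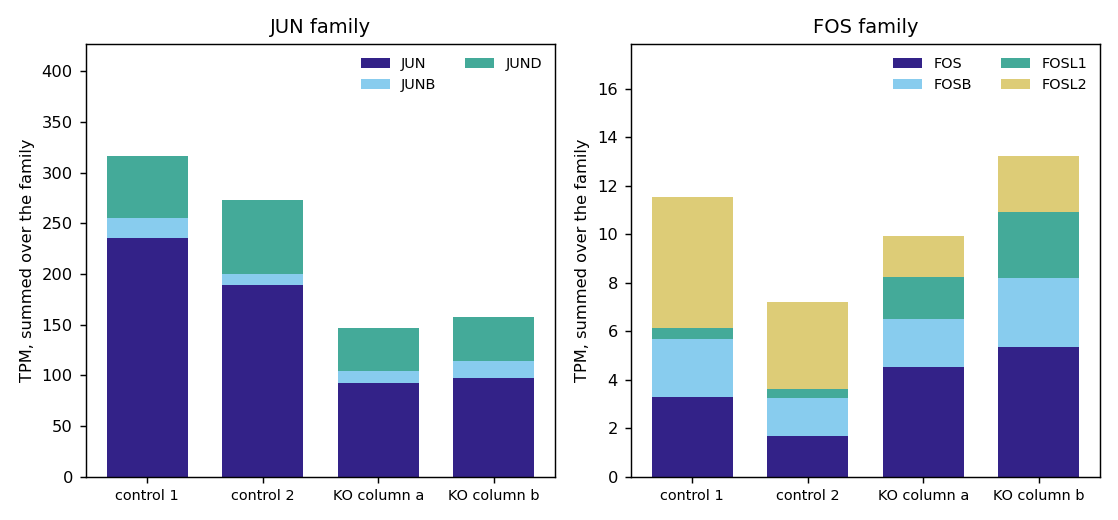
TPM of the JUN family (left) and the FOS family (right) in the 2 control columns and the 2 FOXP4 KO columns, stacked by gene, with each axis starting at 0 and on its own scale. The JUN stacks are 316 and 273 TPM in the controls and 147 and 158 TPM in the KO columns, and within the FOS stacks the FOSL2 segment is smaller and the FOSL1 segment larger in the KO columns.

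Outside these families, ATF3 rose while EGR1 and IER2 were not called. ATF3, a stress-induced factor that pairs with JUN proteins and often represses, spans 212565334 to 212620777 of chromosome 1 (forward strand). ATF3 had 1088 and 1102 counts in the controls and 1802 and 1748 in the KO libraries (30.7, 25.5, 41.8 and 41.8 CPM). The KO libraries were almost equal and both above the controls. The rise was 1.49-fold (95% interval 1.17 to 1.89, log2 fold change 0.57 ± 0.142 SE, adjusted p = 0.0316). It was not called without control library 2 (0.44, adjusted p = 0.0752), KO library 1 (0.57, adjusted p = 0.128) or KO library 2 (0.57, adjusted p = 0.127).

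EGR1, a zinc finger factor induced through serum response factor, had 5.28 and 1.99 CPM in the controls and 5.15 and 7.78 CPM in the KO libraries (187, 86, 222 and 325 counts). Control library 1 lay between the KO libraries. The log2 fold change was 0.84 (95% interval −0.28 to 1.96, adjusted p = 0.223), and it ran from 0.28 (adjusted p = 0.519) without control library 2 and 0.51 (adjusted p = 0.591) without KO library 2 to 1.67 (adjusted p = 0.0388) without control library 1. IER2, a short-lived nuclear protein of the immediate early response, had 45.4 and 11.3 CPM in the controls and 14.9 and 41.4 CPM in the KO libraries (1608, 486, 643 and 1732 counts). Each group held 1 high and 1 low library. The group means were 28.3 and 28.2 CPM, and the 95% interval of the log2 fold change reached from −1.68 to 1.67 (adjusted p = 0.997), which leaves room for a change of over 3-fold either way. Of its exon bases, 30.8% are shared with an antisense gene.

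In all, 2 of the 10 members were called higher, where 13.8% of all genes tested were called higher, and 3 were called lower, where 12.1% of all genes were. The other 5 did not pass. CPM of both KO libraries lay above both controls for 3 members (FOS, FOSL1 and ATF3), as for 35.5% of all genes, and below both for 3 members (JUN, JUND and FOSL2), as for 33.2%. The median log2 fold change was 0.03 over the members and 0.01 over all genes, so the set as a whole had no common direction. Leaving out a library also cut the calls over all genes, most of all when either KO library was left out. Calls lost in that way, here and in the lists below, are thus not particular to these genes. The members called higher numbered 0 without control library 2 or KO library 2, 1 without KO library 1 and 3 without control library 1, and those called lower numbered 1 without KO library 1.

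**Figure D3:**
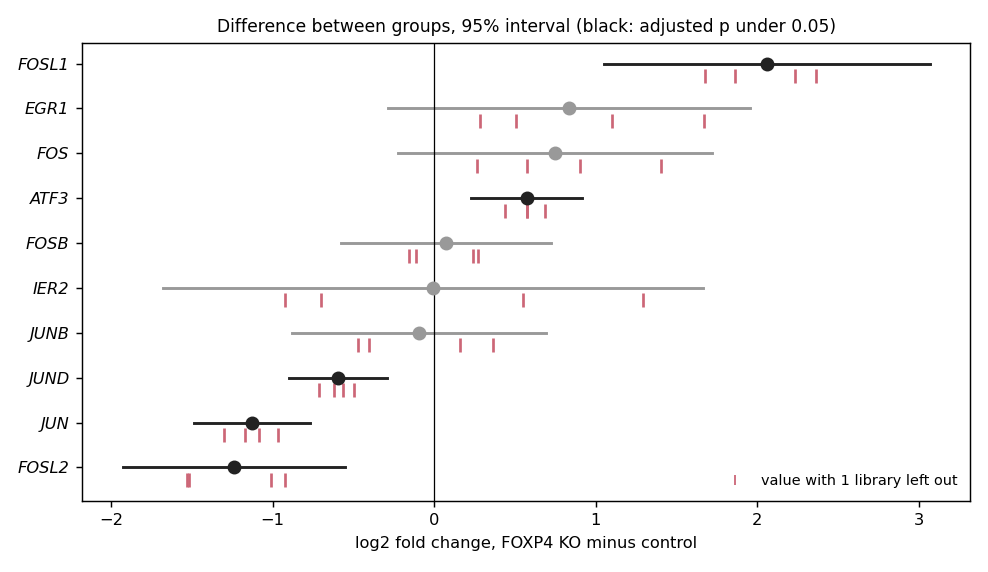
Log2 fold change of each member, FOXP4 KO minus control, with its 95% interval (black where the adjusted p was under 0.05, grey otherwise), and red ticks for the values with 1 library left out. JUN and JUND have the narrowest intervals below 0, FOSL1 has the highest value at 2.06, and the ticks of IER2 run from −0.92 to 1.295.

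The spread between libraries of 1 group was large for several members and took the same order. Control library 1 was above control library 2, and KO library 2 above KO library 1, for 9 of the 10 members, where 27.8% of all genes tested had this order. JUND was the exception, and the gap of ATF3 between the KO libraries was negligible, so that 8 members had the order under the other 3 scalings. With a margin of 1.2-fold in both groups, 7 members kept it (FOS, FOSB, FOSL1, FOSL2, JUNB, EGR1 and IER2), where 4.12% of all genes did. This order was looked for after the values had been seen, the members share the same 4 libraries, and it is given with no test.

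IER2 had the widest gaps, at 4.03-fold between the controls and 2.78-fold between the KO libraries. Gaps as wide as these were found in 0.595% and 1.14% of all genes. EGR1 differed 2.65-fold between the controls and 1.51-fold between the KO libraries, FOS 2.23-fold and 1.26-fold, and JUNB 1.81-fold and 1.48-fold. Over all 14620 genes the deviations of same-numbered libraries were not correlated (r = −0.0026, across genes, which are not independent replicates). KO library 2 also had the highest mitochondrial share (6.84%), and control library 1 the lowest total count, and their part in this order was not tested.

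**Figure D4:**
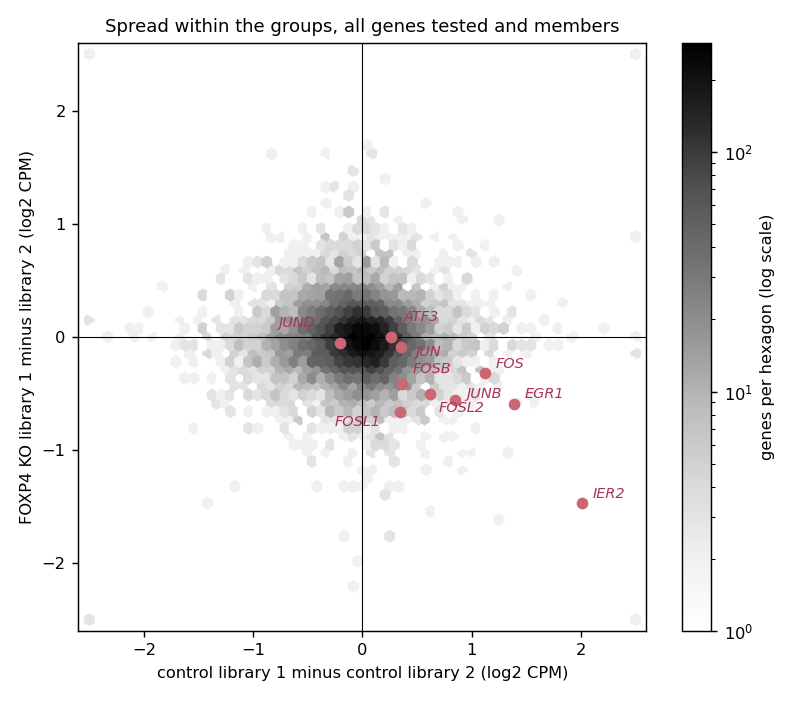
Log2 CPM difference between the control libraries (x axis) against that between the FOXP4 KO libraries (y axis) for all genes tested (grey, darker where more genes fall, values beyond 2.5 drawn at the edge) and the 10 members (red). All members but JUND lie right of 0 and at or below 0, and IER2 lies farthest out at 2.01 and −1.47.

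Of 38 other immediate early genes tested, 6 were called higher (15.8%, against 13.8% of all genes) and 5 lower (13.2%, against 12.1%), with a median log2 fold change of 0.00. Both shares were near those of all genes. Those called higher were TRIB1, a pseudokinase scaffold (log2 fold change 1.19), the cytokine LIF (1.49), KLF10, a TGF-beta-induced zinc finger factor (1.01), MYC (1.10), the chemokine CXCL3 (2.19) and ZFP36, which speeds decay of AU-rich transcripts (1.08). Those called lower were CCN2, a secreted matrix protein and YAP target (−1.63), IER5 (−0.79), the survival factor MCL1 (−0.47), the kinase SGK1 (−0.79) and the GTPase RHOB (−0.48). TRIB1 had 48.7 and 52.3 CPM in the controls and 101 and 129 CPM in the KO libraries, and MYC had 8.24 and 7.43 against 13.0 and 20.7 CPM. The groups did not overlap for either gene. The log2 fold change of MYC was 0.73 (adjusted p = 0.139) without KO library 2. CXCL3 had only 4 and 17 counts in the controls, against 49 and 53 in the KO libraries, so that it passed the filter on low counts in part through the KO libraries. The log2 fold change of CXCL3 was 1.58 without control library 1 and 3.37 without control library 2. The number called higher was 3 without control library 2 and 1 without KO library 2, and the number called lower was 2 without control library 1 and 1 without either KO library.

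The next list holds genes that carry the signal to AP-1. Of 26 kinases and serum response factors tested, 5 were called lower (19.2%, against 12.1% of all genes) and 1 higher (3.85%, against 13.8%), with a median log2 fold change of −0.15. The lower ones were ELK1, a partner of serum response factor (−0.76), SRF itself (−0.63), the kinase MAP2K2, which activates ERK (−0.67), RPS6KA4, which encodes the chromatin kinase MSK2 (−0.75), and MAPK7, which encodes ERK5 (−0.77). ELK4, a relative of ELK1, was the one called higher (0.53). SRF had 154 and 169 CPM in the controls and 97.8 and 110 CPM in the KO libraries, and the groups did not overlap. Without KO library 1 none of the 5 was called lower, and ELK4 was not called without any one of the 4 libraries.

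Of 18 MAP kinase phosphatases and feedback inhibitors, 5 were called lower (27.8%, against 12.1% of all genes) and 0 higher (against 13.8%) by edgeR, with a median log2 fold change of −0.31. At an unadjusted p under 0.05, 7 were lower and 2 higher, and DESeq2 called 1 higher and limma-voom 0. Such a p was common, since the feedback inhibitor SPRY4, with an unadjusted p of 0.0481 (edgeR), ranked 5914 of all 14620 genes by p. All 5 called lower encode dual-specificity phosphatases that switch off MAP kinases, DUSP8 (−1.42), DUSP9 (−0.93), DUSP1 (−1.03), DUSP16 (−0.76) and DUSP5 (−1.54). SPRY1 (1.34), SPRY4 (1.64), DUSP2 (0.74) and DUSP6 (0.63) had both KO libraries above both controls but were not called by edgeR. SPRY4 had only 2 and 9 counts in the controls and 23 and 14 in the KO libraries. DUSP1, itself an immediate early gene, had 34.4 and 31.3 CPM in the controls and 15.0 and 17.2 CPM in the KO libraries. Its KO libraries lay well under its controls. With 1 library left out, log2 fold changes ran from −1.594 to −1.264 for DUSP8, −1.052 to −0.8404 for DUSP9 and −1.134 to −0.9344 for DUSP1. They ran from −0.8139 to −0.7089 for DUSP16 and −1.969 to −1.205 for DUSP5.

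Among 16 AP-1 target genes tested, 4 were called lower (25%, against 12.1% of all genes) and 0 higher (against 13.8%) by edgeR, with a median log2 fold change of −0.02. At an unadjusted p under 0.05, which was common over all genes as well, 5 were lower and 1 higher. DESeq2 and limma-voom called 0 higher. The 4 called lower were HMOX1, the heme oxygenase of the stress response (−1.60), TIMP1, an inhibitor of matrix proteases (−1.81), the matrix protease MMP2 (−1.61) and the hyaluronan receptor CD44 (−1.01). CD44 had only 83 and 85 counts in the controls and 50 and 41 in the KO libraries. It passed narrowly (adjusted p = 0.0479, edgeR). TIMP1 had 107 and 77.8 CPM in the controls and 26.7 and 25.8 CPM in the KO libraries, and HMOX1 62.2 and 68.5 against 21.1 and 22.0 CPM. Both had KO libraries close to each other and far below the controls. Without KO library 2, 2 of the 4 were called. Of 13 other bZIP partners of AP-1 tested, only MAFG, a small MAF protein, was called (7.69% lower, against 12.1% of all genes, log2 fold change −1.90), with control libraries at 23.8 and 74.0 CPM and KO libraries at 13.8 and 12.3 CPM, and it was not called without either KO library. Its log2 fold change was −0.88 without control library 2 and −2.52 without control library 1. All 27 genes called in these 5 lists kept their sign under every scaling and without each library in turn. These genes were picked because they were called with all libraries, so a kept sign was largely fixed by that choice and is no test. Of them 25 were called under every scaling (all but RHOB and CD44), but only 6 of them were called without every library (TRIB1, DUSP8, DUSP9, DUSP1, HMOX1 and TIMP1).

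**Figure D5:**
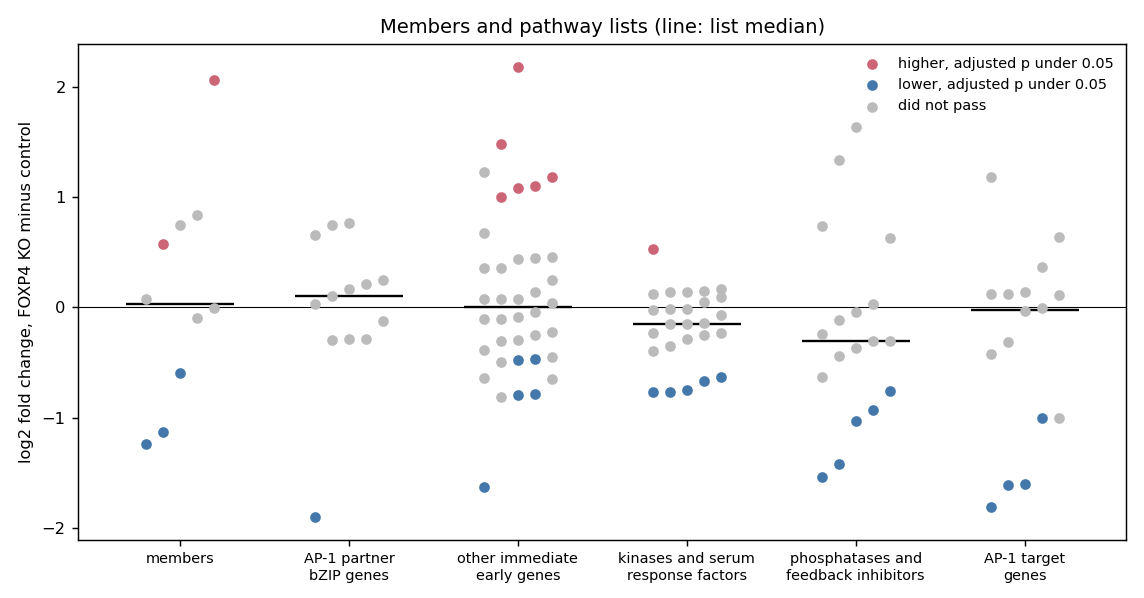
Log2 fold change, FOXP4 KO minus control, of the members and of the tested genes of 5 lists around AP-1 (red called higher, blue called lower, grey did not pass, black line the list median). The phosphatase list has the lowest median, −0.31, with 5 genes called lower and 0 higher, and the members spread from −1.24 to 2.06 around a median of 0.03.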

How the data were processed

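The authors deposited raw counts per gene, in a table of 15218 genes without a count of 0, and TPM values per gene, which the authors scaled to totals of 999930.2 to 999944.4 per column. For the aligner and the counter, a name is not given in the sources used here. Mouse builds (GRCm38, mm10) stand in the submitters' processing notes, although the gene symbols are human. Counts were tested in R 4.3.3 with edgeR 4.0.16 (filterByExpr, TMM, quasi-likelihood test, no covariates), with Benjamini-Hochberg adjustment over 14620 genes and a threshold of 0.05. The SE is the size of the log2 fold change over the square root of F, and scripts were tested on simulated data. TPM columns of the KO group were used as a group. The members and lists were chosen with earlier results of these data known. Named genes are the members, FOXP4 and, per list, up to 6 called genes each way in order of p, and others were named after their values were seen. Symbols were matched through RefSeq synonyms (CCN2 is CTGF in the files). Alternatives were DESeq2 1.42.0, limma 3.58.1 (voom on counts, and trend on TPM with 1 or 0.1 added before the log2), no filter, other scalings, a replicate block and each library left out.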

Additional observations from a re-analysis of the deposited data

How the results depend on the processing

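Over the 10 members and 13 alternatives, 106 values kept their direction and side of the threshold, 10 lost the call, 2 gained it and 12 turned direction, the last in FOSB, IER2 and JUNB, which were not called under any setting. IER2 had log2 fold changes of 0.0716 with upper-quartile scaling, 0.0338 with library totals, 0.186 with limma-voom, 0.0667 with log2(TPM + 1), 0.0776 with log2(TPM + 0.1) and 0.131 with the replicate block. With 1 library left out, which leaves a group with 1 sample assumed to vary like the other group, values ran from −0.92 to 1.295 for IER2, −0.47 to 0.37 for JUNB and −0.16 to 0.27 for FOSB. The members called higher then numbered 0 to 3 and those called lower 1 to 3, while over all genes 639 to 2013 were called higher, against 2013 with all libraries, and 467 to 1614 lower, against 1765. Fewer samples were fitted in each. Upper-quartile scaling called 2383 genes higher and 1368 lower, 63.5% of calls higher against 53.3%, without a change in the members called. The replicate block also left 2 members called higher and 3 lower. The deviations of same-numbered libraries had a correlation of −0.0026 over 14620 genes. Such a value over all genes cannot decide whether libraries with the same number were handled together, and the labels do not say. Among the lists, limma-voom and both TPM fits called 0 bZIP partners lower, both TPM fits called 0 kinases and serum response factors higher, and DESeq2 and the replicate block called 1 phosphatase or feedback inhibitor higher. FOSL1 and FOSL2 stayed called with log2(TPM + 1), with log2 fold changes of 1.15 and −0.86 on that scale, on which the added 1 lowers the change of genes with few transcripts.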

Other observations

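Of the 38 other immediate early genes tested, 26 (68.4%) had control library 1 above control library 2 and KO library 2 above KO library 1, where 27.8% of all genes did. With a margin of 1.2-fold in both groups the order was kept by 9 of them, KLF10, KLF2, KLF4, NR4A1, NR4A2, CSRNP1, HBEGF, BHLHE40 and ZFP36L1, or 23.7% against 4.12% of all genes. Under the other 3 scalings 18.4% to 21.1% kept it. These genes and the next were named after their values were seen.

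MAP2K4, the kinase that activates JNK, the kinase of JUN, was counted 2100 and 747 times in the controls (libraries 1 and 2) and 672 and 1851 times in the KO libraries. Each group held 1 high and 1 low library, as for IER2, and the log2 fold change of −0.35 ± 0.650 SE did not pass the test (adjusted p = 0.715, edgeR).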
